A study of Mus musculus with 24 samples.

Results

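The cytosolic ribosomal protein genes were taken as every row of the deposited count table whose symbol is Rpl or Rps with a number (with or without a final a or x), Rplp0, Rplp1, Rplp2 or Rpsa. The rule found 77 of 23283 genes, of which 31 encode proteins of the small subunit and 46 encode proteins of the large subunit, and it used no measured value. The series holds 24 mouse libraries in 6 groups. The 4 iPS libraries came from factor independent induced pluripotent cells positive for the Oct4:GFP reporter, grown in embryonic stem cell medium with LIF and without doxycycline. The 4 fast MEF and 4 slow MEF libraries came from embryonic fibroblasts kept for 6 days in the same medium with doxycycline, which induced the Yamanaka factors, and then sorted by how far they had diluted the dye CFSE over 48 hours. The 5 fast GMP and 3 slow GMP libraries came from granulocyte monocyte progenitors grown in serum-free medium with growth factors, among them SCF, IL3 and Flt3L, and sorted by dilution of CFSE over 24 hours. The 4 bulk MEF libraries came from untreated, unsorted fibroblasts in DMEM with serum, to which the labels give a slow cycle speed. The cells of every group except bulk MEF were thus chosen by cycling or by a reporter, and induction, medium, sorting and dye differ together between the induced and the bulk fibroblasts, so these cannot be told apart.

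A ribosome is a small and a large subunit, each a scaffold of ribosomal RNA with a fixed set of proteins, nearly all present as 1 copy. Ribosomal protein mRNAs are among the most abundant of growing cells, and they carry a 5′ terminal tract of pyrimidines, the TOP motif, through which mTOR signalling controls their translation. The levels of the proteins are commonly held close to each other, since proteins made in excess are degraded. A few of the genes have near copies on other chromosomes, and many have processed pseudogenes, inserted DNA copies of the mRNA.

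The start sites of 6 members are shown, with a longest run of C and T near the start of 3 to 17 bases. TOP mRNAs start at such a tract, but the longest run need not lie at the start itself. In Rpl11 it lies wholly before the start. Differences of Rps24, Rpl11, Rpl38, Rpl18 and Rps10 between groups are described further on, and Rpl15, which rose in iPS over fast MEF by 1.25 ± 0.15 log2 (SE, adjusted p = 0.000168), is shown for its long run. Each sequence is 30 bases of the gene's strand, 15 on each side of the first start that RefSeq lists on GRCm38.p6, and capitals mark the longest run of C and T. The authors' counts rest on another build, mm9, and no coordinate was carried between builds. Rps24 lies at chr14:24490663-24490692 on the plus strand, Rpl11 at chr4:136053379-136053408 on the minus strand, Rpl38 at chr11:114668565-114668594 on the plus strand, Rpl18 at chr7:45718056-45718085 on the plus strand, Rps10 at chr17:27635230-27635259 on the minus strand and Rpl15 at chr14:18270972-18271001 on the minus strand.
Rps24: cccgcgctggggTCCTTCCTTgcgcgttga
Rpl11: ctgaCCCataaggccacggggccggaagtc
Rpl38: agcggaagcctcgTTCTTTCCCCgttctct
Rpl18: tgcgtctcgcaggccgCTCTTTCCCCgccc
Rps10: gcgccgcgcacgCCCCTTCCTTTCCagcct
Rpl15: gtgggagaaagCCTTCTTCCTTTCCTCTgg

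RefSeq start sites were matched by symbol for 56 of the 77 members. A run of at least 8 C or T stood in the 30 bases of 23 of these 56 members (41.1%), against 11.9% of 27025 promoters in the same table. The median longest run was 6.5 bases in the members and 4 bases in all promoters. The motif CTTTCC, on the gene's strand of the same 30 bases, was in 14.3% of the members and 1.39% of all promoters. On either strand of the 300 bases from 250 before to 50 after the start, CCGGAAG, the core of ETS factor sites, was in 39.3% of the members and 9.12% of all promoters. In the same window CTCTTTCC, which contains CTTTCC, was in 16.1% of the members and 3.04% of all promoters, and TATAAA was in 8.93% of the members and 14.2% of all promoters. These are matches of letters and say nothing of binding.

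The libraries held 2098846 to 18648132 counts. Rn45s and Lars2, which were left out before scaling, took 3.05% to 11.7% of the counts in MEF and iPS libraries and 19.9% to 48.9% in GMP libraries. Fast GMP replicate 1 stood apart, with a count for 18402 genes, against 9380 to 15327 in the other libraries. Levels in CPM, counts per 1000000 counts, below are scaled by TMM factors over all 24 libraries. The 13 fibroblast markers summed to 2155 to 2922 CPM in iPS, 7829 to 11251 CPM in fast MEF, 91074 to 149820 CPM in slow MEF, 138 to 883 CPM in GMP libraries and 66529 to 89603 CPM in bulk MEF, with Lum at 0 in both GMP groups. The 13 pluripotency markers summed to 3403 to 5074 CPM in iPS, 349 to 693 CPM in fast MEF, 18.5 to 36.7 CPM in slow MEF and 0.789 to 28.1 CPM in bulk MEF. Their sums were 5.86 to 215 CPM in fast GMP and 45.1 to 107 CPM in slow GMP. The 13 of 14 granulocyte and monocyte markers in the table summed to 6479 to 29735 CPM in GMP libraries and to at most 72.3 CPM elsewhere. The 10 keratinocyte markers summed to 397 to 953 CPM in iPS, 10513 to 17728 CPM in fast MEF, 62.2 to 745 CPM in slow MEF and 88.2 to 101 CPM in bulk MEF, where Krt1 and Trp63 were at 0. Their sums were 21.5 to 295 CPM in fast GMP and 17.3 to 48.0 CPM in slow GMP. Some of these marker sums move with the groups in each comparison below except fast GMP over slow GMP. There the fibroblast sums overlapped, at 289 to 687 CPM in fast GMP and 138 to 883 CPM in slow GMP. The granulocyte and monocyte sums also overlapped, at 6479 to 29735 CPM in fast GMP and 12201 to 21778 CPM in slow GMP. The part of the markers in the ribosomal protein differences was not tested. In bulk samples, fewer cells of a type and less RNA per cell cannot be told apart.

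By group mean, ribosomal protein mRNAs took the largest shares of the library in iPS and the GMP groups and the smallest in slow MEF. The 77 members together took 9.21%, 12.4%, 11.4% and 11.5% of the counts in iPS, or 11.1% ± 1.36 (SD, n = 4). The share was 5.04%, 4.95%, 4.92% and 6.14% in fast MEF, 5.26% ± 0.588 (SD, n = 4). It was 3.93%, 4.48%, 4.38% and 5.01% in slow MEF, 4.45% ± 0.440 (SD, n = 4). The 4 iPS libraries lay above every MEF library, while the 2 gates of induced fibroblasts overlapped. In fast GMP the share was 6.31%, 10.1%, 13.3%, 14.1% and 12.2%, 11.2% ± 3.13 (SD, n = 5). In slow GMP it was 10.9%, 8.69% and 6.60%, 8.73% ± 2.16 (SD, n = 3). In bulk MEF it was 5.17%, 7.19%, 4.76% and 6.60%, 5.93% ± 1.15 (SD, n = 4). The fast and slow GMP libraries overlapped each other, and both groups overlapped bulk MEF.

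The ratios between groups differed between scales. The mean share was 1.88 times as large in iPS as in bulk MEF, but the same ratio of summed CPM, with TMM factors, was 1.48, and on that scale the groups overlapped. The ratio of slow MEF to bulk MEF was 0.750 by share, with overlap, and 0.644 by summed CPM, with none. That of fast MEF to bulk MEF was 0.887 by share and 0.657 by summed CPM, and the groups overlapped on both scales. Fast MEF to slow MEF was 1.18 by share and 1.02 by summed CPM, with overlap on both scales. The iPS to fast MEF ratio was 2.12 by share and 2.25 by summed CPM, with no overlap on either scale. For GMP of both gates to bulk MEF the ratio by share was 1.68. With Rn45s and Lars2 kept it was 1.28, and the groups overlapped either way. No test was made of a score over the members.

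**Figure D1:**
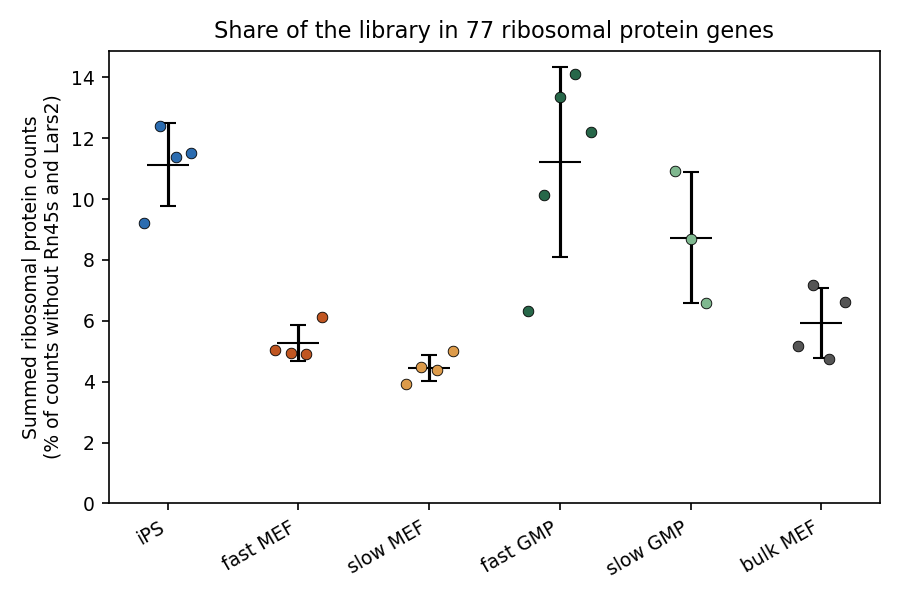
Percent of each library's counts, without Rn45s and Lars2, that fell on the 77 ribosomal protein genes; each point is a library and the bars are group means with the SD. The 4 iPS points, from 9.21% to 12.4%, lie above all 12 MEF points, and the GMP points spread from 6.31% to 14.1%.

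A small number of members carried a large part of the sum. The 10 most abundant members made up 52.0% of it in iPS, 46.0% in fast MEF, 45.8% in slow MEF, 58.4% in fast GMP, 53.5% in slow GMP and 55.3% in bulk MEF. Rps2, a protein of the small subunit near the mRNA entry site, led in iPS and in the 3 MEF groups, with 9.72% of the sum in iPS, 9.36% in fast MEF, 9.11% in slow MEF and 11.3% in bulk MEF. Rpl36 of the large subunit led in fast GMP with 14.5%, and Rps3, which also sits at the mRNA entry, led in slow GMP with a mean of 9.48%. That lead rested on slow GMP replicate 1, since Rps3 took 21.9%, 5.11% and 1.41% of the sum in the 3 slow GMP libraries, where Rps2 took 7.72%, 5.35% and 10.0%. By mean CPM over all libraries the 10 highest members included Rpl36 at 8678, Rps2 at 7238, Rpl13a at 4200, Rpl18 at 3721, Rpsa at 3400, Rplp0 at 3074, Rpl32 at 2979, Rps3 at 2915 and Rpl8 at 2647 CPM. Per kilobase of coding sequence Rpl36 stayed first at 27549 CPM, followed by Rpl41, the shortest member, at 15403 CPM, and Rps2 had 8234 CPM. At the other end Rpl26 had 41 counts, Rps27 156 counts and Rpl30 569 counts over all 24 libraries.

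Rpl36 varied widely between libraries of a group. It took 13.9%, 3.53%, 23.6%, 17.9% and 13.6% of the ribosomal protein sum in fast GMP and 14.8%, 9.66% and 2.08% in slow GMP. It took 3.04%, 9.45%, 9.14% and 6.37% of the sum in bulk MEF. Without Rpl36 the summed share was 10.2% ± 1.04 in iPS, 5.09% ± 0.585 in fast MEF, 4.29% ± 0.375 in slow MEF, 9.51% ± 2.38 in fast GMP, 7.87% ± 1.42 in slow GMP and 5.51% ± 1.02 in bulk MEF (SD, n = 4, 4, 4, 5, 3 and 4). Without this gene iPS, not fast GMP, had the highest mean, and the order of the other 4 groups was the same. Small subunit genes made up 33.4% to 52.6% of the ribosomal protein sum over the 24 libraries.

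In most groups 1 library held the highest or lowest level of most members. Of the 77 members, 58 had their lowest iPS level in iPS replicate 1, 55 had their highest fast MEF level in fast MEF replicate 4, and 67 had their lowest fast GMP level in fast GMP replicate 1. In bulk MEF, 57 were highest in replicate 2 and 60 were lowest in replicate 3. In slow MEF no library held more than 39 members' highest or 36 members' lowest level, and in slow GMP replicate 1 was highest for 40 and replicate 3 lowest for 42. The median SD of a member's log2 level within a group was 0.36 in iPS, 0.32 in fast MEF, 0.27 in slow MEF, 0.83 in fast GMP, 0.76 in slow GMP and 0.44 in bulk MEF. Each member's mean was highest in iPS for 31 members, in fast GMP for 30, in slow GMP for 11 and in slow MEF for 5. It was lowest in slow MEF for 29 members, in fast MEF for 25, in bulk MEF for 14, in slow GMP for 7 and in fast GMP for 2.

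What the count table can tell about single members is limited by copies elsewhere in the genome. In the GENCODE vM21 transcripts, the median member shared 93.05% of its coding windows of 50 bases with at least 1 other annotated gene. All windows were shared in 29 members, and over 50% of them in 66 members. Under 10% of the windows were shared in 3 members, among them Rps3 with 8.09%. How reads that match several places were counted is not given in the sources used here, so the level of a member with shared windows is uncertain. Over the 77 members, the mean CPM per coding kilobase and the percent of windows shared had a Spearman rho of -0.12, as a description.

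The comparison of iPS with bulk MEF sets the end of reprogramming beside its start. In edgeR's quasi-likelihood test with Benjamini-Hochberg adjustment over all genes, 23 of the 75 members tested rose in iPS and 0 fell, where 24.1% of all genes tested rose and 23.3% fell. The share of members that rose was therefore near that of all genes, while the share that fell was not. The median log2 fold change was 0.64 over the members, positive for 73 of 75, and 0.10 over all genes. Of the small subunit members 8 of 30 rose, and of the large subunit members 15 of 45. The count was sensitive to single libraries, at 39 without bulk MEF replicate 2, 14 without bulk MEF replicate 1, bulk MEF replicate 3, iPS replicate 3 or iPS replicate 4, and 12 without iPS replicate 2. It was 4 with all 24 libraries in 1 fit, where every group shares 1 estimate of the spread.

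Rps4x, the X-linked copy of the small subunit protein Rps4, had 1009, 1259, 1130 and 1296 CPM in iPS, against 441, 474, 327 and 505 CPM in bulk MEF. Every iPS library was above every bulk MEF library, and the log2 fold change was 1.46 ± 0.20 (SE, adjusted p = 0.000297). Rpl7a, a large subunit protein that joins the ribosome early in its assembly, had 1536, 2322, 2186 and 1933 CPM in iPS, against 761, 955, 703 and 928 CPM in bulk MEF. Its groups did not overlap, and the log2 fold change was 1.29 ± 0.20 (SE, adjusted p = 0.000507). Rpl36a, a large subunit protein near the exit site of the transfer RNA, had 339, 906, 753 and 818 CPM in iPS, against 186, 264, 142 and 193 CPM in bulk MEF. This was the largest rise among the members, at 1.88 ± 0.33 log2 (SE, adjusted p = 0.00112), with no overlap. Rps6, the small subunit protein phosphorylated by S6 kinase, rose less, by 0.91 ± 0.24 log2 (SE, adjusted p = 0.00935).

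All 4 X-linked members, Rpl10, Rpl36a, Rpl39 and Rps4x, were among the 23 that rose in iPS over bulk MEF, though the call of Rpl39 was lost without bulk MEF replicates 1, 3 or 4 or iPS replicates 2, 3 or 4, at log2 fold changes of 0.81 to 1.13. Their median log2 fold change was 1.28, against 0.63 in the 71 autosomal members tested. Over all genes tested, the median was 0.80 for 405 X-linked genes, of which 157 rose and 66 fell, and 0.08 for 11231 autosomal genes. Against fast MEF, 3 of the 4 X-linked members rose, with a median of 1.93, beside 0.98 in the autosomal members. Over all genes tested there, the median was 0.59 for 405 X-linked genes, of which 133 rose and 52 fell. For 11382 autosomal genes it was -0.02. Xist, the RNA of the inactive X chromosome, had 11.9 to 16.6 CPM in iPS, 67.1 to 266 CPM in fast MEF, 12.2 to 397 CPM in slow MEF and 8.42 to 55.0 CPM in bulk MEF, so that iPS and bulk MEF overlapped. The part of the X chromosome as a whole in the rise of these 4 members was not tested, and the split by chromosome was chosen after values were seen.

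The comparison of iPS with fast MEF asks how far the fast cycling cells of the induced culture stood from finished iPS cells, and it shares its iPS libraries with the comparison above. Here 51 of 75 members rose in iPS and 0 fell, where 18.7% of all genes tested rose and 19.7% fell. The median log2 fold change was 1.02 over the members and 0.00 over all genes. With all 24 libraries in 1 fit 19 members rose. The rise included 22 of 30 small subunit and 29 of 45 large subunit members. Rpl10, the large subunit protein that joins the subunit late, in the cytoplasm, had 2058, 1833, 1492 and 1312 CPM in iPS, against 402, 341, 322 and 387 CPM in fast MEF. The lowest iPS library was more than 3 times the highest fast MEF library, and the log2 fold change was 2.20 ± 0.18 (SE, adjusted p = 2.08e-05).

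The acidic stalk recruits translation factors to the large subunit, and its 3 genes all rose in iPS over fast MEF. Rplp0, the base of the stalk, rose by 0.68 ± 0.13 log2 (SE, adjusted p = 0.00315). Rplp1 had 2070, 3231, 3328 and 2906 CPM in iPS, against 834, 723, 1238 and 1322 CPM in fast MEF, and rose by 1.48 ± 0.23 log2 (SE, adjusted p = 0.000916). Rplp2 had 318, 695, 705 and 534 CPM in iPS, against 148, 241, 259 and 309 CPM in fast MEF, and rose by 1.23 ± 0.30 log2 (SE, adjusted p = 0.00859). The groups did not overlap for any of the 3 genes. None of the 3 was called in iPS over bulk MEF.

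**Figure D2:**
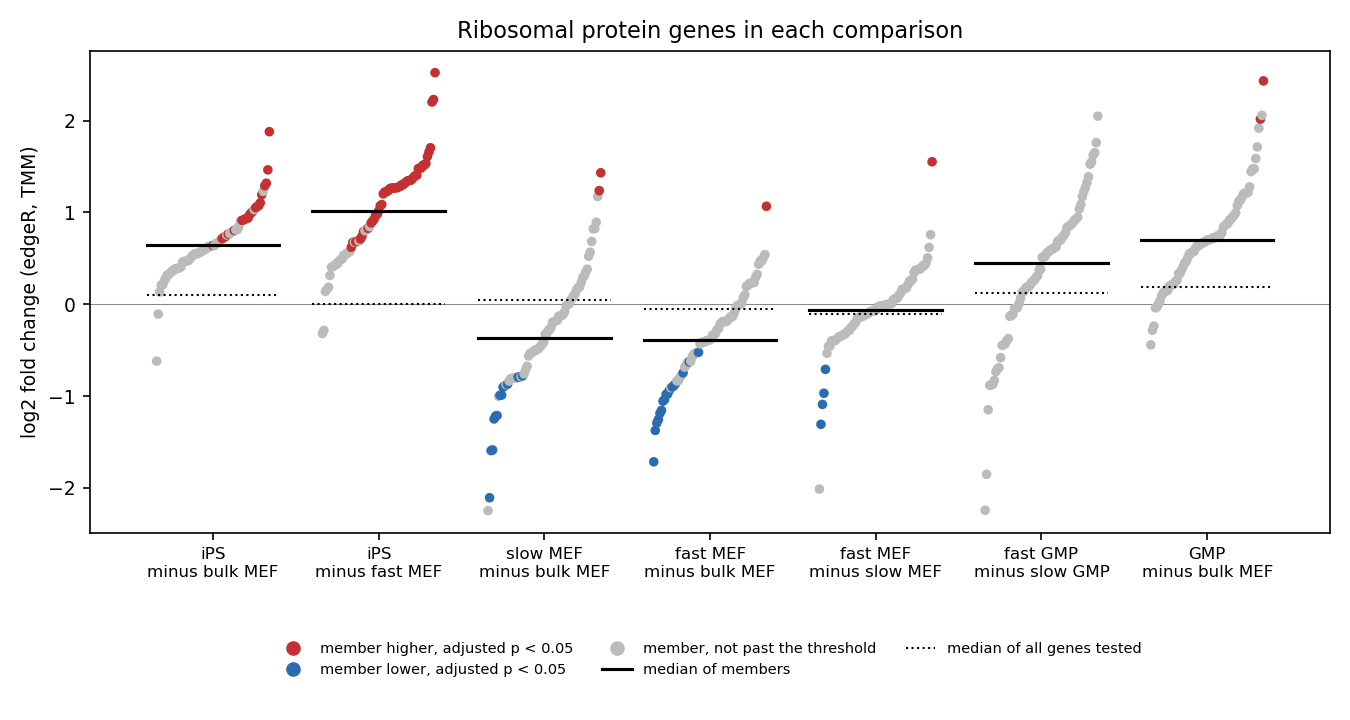
Log2 fold change of each ribosomal protein gene tested, by comparison, with colored points for members past an adjusted p of 0.05 in edgeR's quasi-likelihood test; solid lines mark the median of the members and dotted lines that of all genes tested. Nearly all members lie above 0 in iPS over fast MEF (median 1.02) and mostly below 0 in slow MEF and fast MEF over bulk MEF (medians -0.37 and -0.38).

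The induced fibroblasts of both gates, set against the same 4 bulk MEF libraries, had lower levels of part of the members. In slow MEF over bulk MEF, 2 of 76 members rose and 14 fell, where 5.67% of all genes tested rose and 4.82% fell. The median log2 fold change was -0.37 over the members and 0.05 over all genes. Without slow MEF replicate 3 the total was 6 members, and without bulk MEF replicate 4, slow MEF replicate 1 or slow MEF replicate 2 it was 8. In fast MEF over bulk MEF, 1 of 74 members rose and 17 fell, where 16.5% of all genes rose and 18.4% fell, and the medians were -0.38 over the members and -0.05 over all genes. The share of members that fell in fast MEF was thus near that of all genes, while few rose. With all 24 libraries in 1 edgeR fit, 0 members were called in slow MEF and 2 in fast MEF. A correction for GC content, chosen after the data were seen, changed the splits to 0 higher and 13 lower in slow MEF and 0 higher and 17 lower in fast MEF.

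Rps2 had 3833, 4190, 3895 and 3956 CPM in slow MEF, against 6483, 8788, 6490 and 8509 CPM in bulk MEF. All 4 slow MEF libraries were below all 4 bulk MEF libraries, and the gene fell by 0.87 ± 0.16 log2 (SE, adjusted p = 0.00635). In fast MEF it had 4387, 3938, 4015 and 4236 CPM, and there it fell by 0.89 ± 0.15 log2 against the same bulk MEF libraries (SE, adjusted p = 0.00149). Rpsa, the laminin receptor homologue of the small subunit, had 1210, 1210, 1021 and 1650 CPM in slow MEF and 1839, 1432, 1391 and 1891 CPM in fast MEF, against 3087, 3778, 2184 and 3313 CPM in bulk MEF. It was lower in every induced library than in any bulk MEF library, with log2 fold changes of -1.22 ± 0.22 in slow MEF (SE, adjusted p = 0.00621) and -0.94 ± 0.20 in fast MEF (SE, adjusted p = 0.00429). Rplp2 fell in slow MEF by 1.25 ± 0.23 log2 (SE, adjusted p = 0.00726), at 132, 153, 152 and 150 CPM, against 423, 381, 268 and 385 CPM in bulk MEF. Rplp1 fell in fast MEF by 1.19 ± 0.32 log2 (SE, adjusted p = 0.0141).

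Other members fell in both gates against bulk MEF, among them Rpl10, Rpl18, Rpl32, Rpl36 and Rps10. The call of Rpl32 was lost in fast MEF without bulk MEF replicates 2 or 4 or fast MEF replicates 1, 2 or 3, at log2 fold changes of -1.18 to -0.73, and in slow MEF without slow MEF replicates 1, 2 or 3, at -1.65 to -1.47. The call of Rps10 in slow MEF was lost without slow MEF replicate 3, at -1.22. Rpl36 fell by 1.59 ± 0.43 log2 in slow MEF (SE, adjusted p = 0.0368), with 951, 1331, 1475 and 2521 CPM there, against 1692, 8426, 4741 and 4793 CPM in bulk MEF, and the groups overlapped. Its call in slow MEF was lost in 9 of 19 alternative settings, among them leaving out bulk MEF replicates 2, 3 or 4 or slow MEF replicates 1, 2 or 3. The largest fall among the calls was that of Rpl34 in slow MEF, at -2.11 ± 0.61 log2 (SE, adjusted p = 0.0487), with 2.81, 2.82, 3.72 and 4.26 CPM, against 6.59, 13.4, 10.8 and 30.6 CPM in bulk MEF. That call was lost when any library except bulk MEF replicate 1 was left out.

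Beside the members that fell, a few members were higher in the induced fibroblasts. Rps24, a small subunit protein needed for ribosomal RNA processing, had 680, 568, 592 and 469 CPM in slow MEF, against 228, 346, 167 and 280 CPM in bulk MEF. Rpl39, a short protein at the exit of the large subunit's peptide tunnel, had 339, 333, 260 and 304 CPM in slow MEF, against 124, 181, 76.4 and 95.7 CPM in bulk MEF. Neither gene's groups overlapped. Their log2 fold changes were 1.24 ± 0.26 for Rps24 (SE, adjusted p = 0.0137) and 1.43 ± 0.30 for Rpl39 (SE, adjusted p = 0.0123). Rps25, a small subunit protein used by some viral internal ribosome entry sites, rose in fast MEF by 1.07 ± 0.33 log2 (SE, adjusted p = 0.0277), and its groups overlapped. That call was lost without bulk MEF replicates 1, 3 or 4 or fast MEF replicate 4, with log2 fold changes of 0.86 to 0.99. These 3 genes are low in GC, with 46.1%, 45.1% and 48.5% of their coding bases beside a member median of 52.7%, and after the GC correction their log2 fold changes were 0.85, 1.01 and 0.80, none past the threshold.

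To find members that departed from the family, each library was also scaled to its own ribosomal protein sum, and a member was counted as departing at an adjusted p under 0.05 and at least a 2-fold change on that scale. In slow MEF over bulk MEF, 7 of 76 members departed upward and 0 downward, where 9.82% of all genes tested lay higher and 1.39% lower on this scale. With the median of ratios over the members in place of their sum, which gives abundant members less weight, 5 departed upward (Rpl39, Rps24, Rps25, Rpl23 and Rpl11) and 2 downward, Rpl36 at -1.24 and Rpl32 at -1.16. The 7 on the scale of the sum were Rpl39 at 2.02 ± 0.30, Rps24 at 1.85 ± 0.27, Rps25 at 1.80 ± 0.30, Rpl23 at 1.49 ± 0.27, Rpl11 at 1.45 ± 0.25, Rps26 at 1.38 ± 0.40 and Rps15a at 1.18 ± 0.31 (log2 relative to the sum, SE). Their adjusted p ran from 0.0011 for Rps24 to 0.0407 for Rps26. The departures of Rpl39, Rps24, Rps25, Rpl23 and Rpl11 held in all 11 alternatives run on this scale, and that of Rps26 was lost in 9 of the 11, among them leaving out any bulk MEF replicate or slow MEF replicate 1, 3 or 4.

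Rps24 took 1.70%, 1.25%, 1.46% and 0.953% of the ribosomal protein sum in slow MEF and 0.719%, 1.11%, 0.649% and 0.922% in fast MEF, against 0.410%, 0.388%, 0.321% and 0.372% in bulk MEF. In iPS it took 0.275%, 0.300%, 0.309% and 0.343%. Its share in every induced fibroblast library was above that in every iPS and bulk MEF library. Rps25 took 2.00%, 0.973%, 1.16% and 1.59% in slow MEF and 1.13%, 1.45%, 1.18% and 1.67% in fast MEF, against 0.420%, 0.557%, 0.346% and 0.324% in bulk MEF. In iPS it took 0.297%, 0.442%, 0.569% and 0.600%, so that Rps25 had the same split between induced fibroblasts and the other 2 groups. Rpl11, which binds Mdm2 when ribosome assembly is disturbed, took 1.40%, 1.17%, 1.43% and 1.21% in slow MEF and 1.03%, 1.27%, 0.953% and 1.07% in fast MEF, against 0.455%, 0.586%, 0.381% and 0.481% in bulk MEF. In iPS it took 0.507% to 0.747%, below all induced libraries. Among the GMP libraries, slow GMP replicate 3 had shares of Rps24 and Rpl11 within the range of the induced libraries. The other GMP libraries lay below all induced libraries for both genes. For Rps25 every GMP library was below every induced library.

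**Figure D3:**
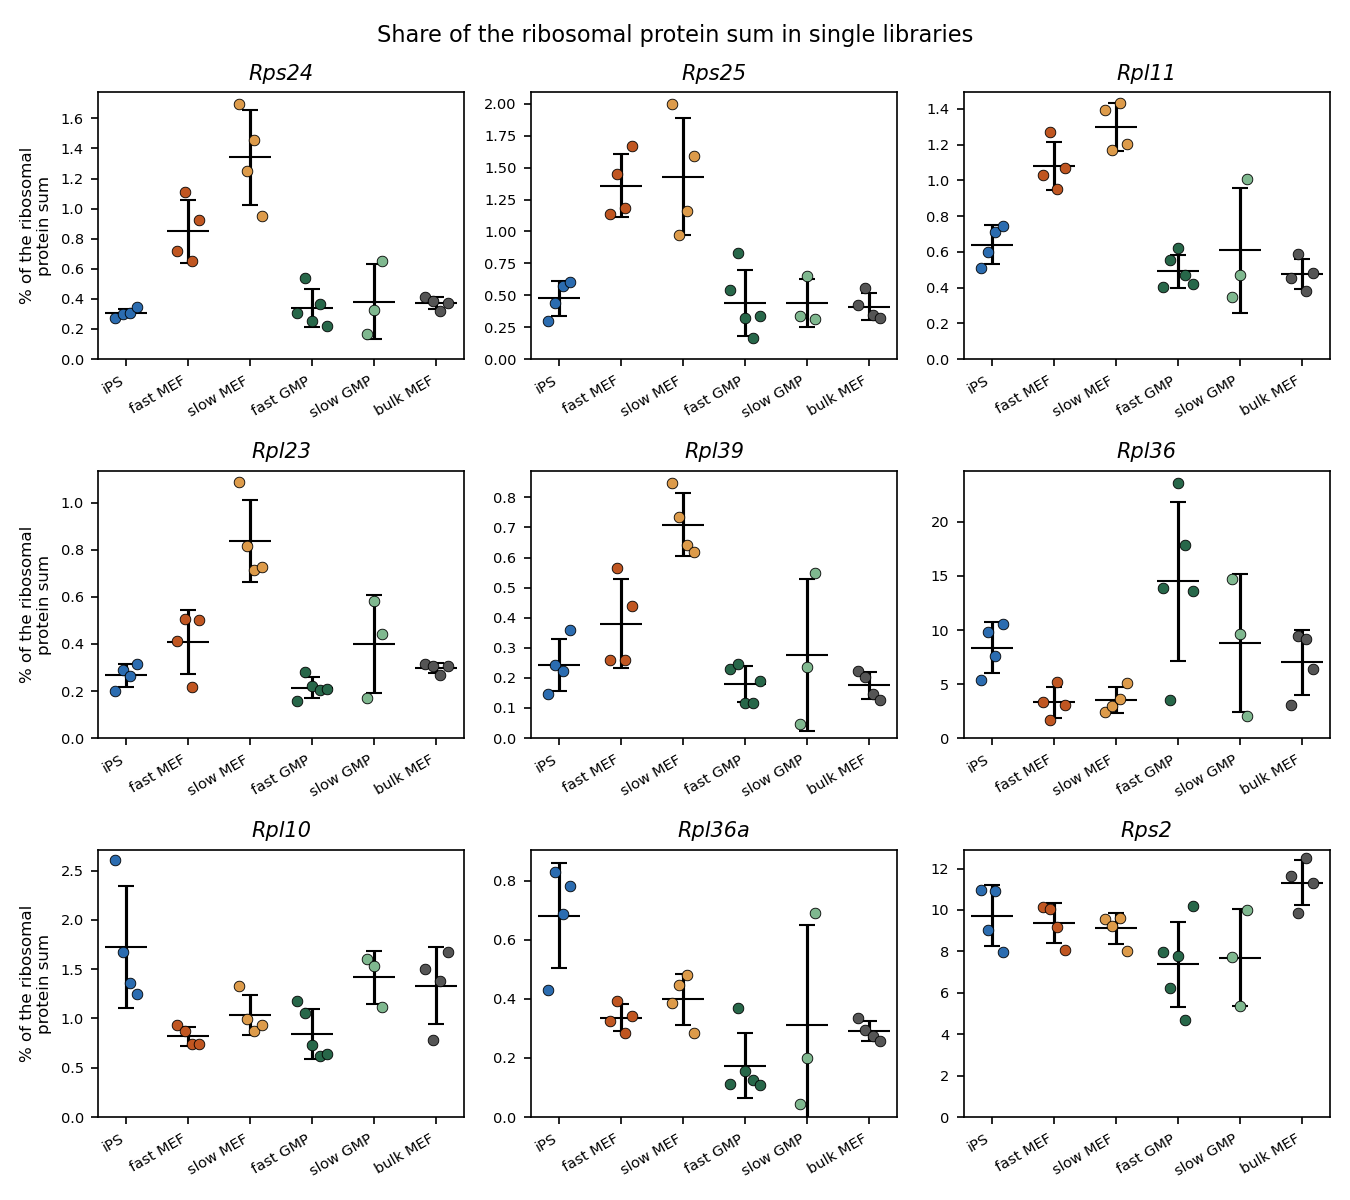
Percent of each library's ribosomal protein sum taken by 9 members, with a point for each library and bars for the group mean and SD, drawn down to 0 at most. Rps24, Rps25 and Rpl11 are higher in all 8 induced MEF libraries than in any iPS or bulk MEF library. For Rps24 and Rpl11, slow GMP replicate 3 lies within the induced MEF range. Rpl36 is spread widely in GMP and bulk MEF libraries.

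In fast MEF over bulk MEF the departing members were Rps25 at 1.72 ± 0.27, Rps24 at 1.19 ± 0.27, Rpl11 at 1.18 ± 0.25, Rpl39 at 1.12 ± 0.36 and Rps26 at 1.05 ± 0.34 upward and Rpl36 at -1.09 ± 0.37 downward (log2 relative to the sum, SE). These were 6 of 74 members, where 23.7% of all genes lay higher and 10.1% lower, and the number was 3 without bulk MEF replicate 4 or fast MEF replicate 4. Single libraries decided Rpl39 and Rps26, lost without bulk MEF replicates 3 or 4 or fast MEF replicates 2 or 4, and Rpl36, lost without bulk MEF replicates 2, 3 or 4 or fast MEF replicates 1, 2 or 4. With the median of ratios in place of the sum 3 departed, among them Rps25 at 1.45 upward and Rpl36 at -1.36 downward. On that scale Rps24 at 0.91, Rpl11 at 0.91, Rpl39 at 0.85 and Rps26 at 0.78 no longer departed. The GC correction, on the scale of the sum, ended the departures of Rps24 at 0.82, Rpl39 at 0.68 and Rpl36 at -0.92. In iPS over fast MEF, Rpl36 at 1.34 ± 0.32, Rpl10 at 1.08 ± 0.25 and Rpl36a at 1.02 ± 0.25 departed upward, and Rps25 at -1.51 ± 0.26, Rps24 at -1.47 ± 0.23, Rpl31 at -1.03 ± 0.27 and Rps26 at -1.03 ± 0.32 departed downward, where 6.73% of all genes lay higher and 42.5% lower. The number was 4 without iPS replicate 1, which ended the departures of Rpl10, Rpl31 and Rps26. That of Rpl31 also ended without fast MEF replicates 2 or 4, that of Rps26 without fast MEF replicate 4 or iPS replicate 3, and that of Rpl36a without fast MEF replicate 3 or iPS replicates 2 or 4. In iPS over bulk MEF, Rpl36a alone departed, at 1.23 ± 0.29 (adjusted p = 0.0045), where 13.4% of all genes lay higher and 30.4% lower. Rpl36a took at least 0.429% of the sum in each iPS library and 0.324%, 0.393%, 0.285% and 0.342% in fast MEF. In bulk MEF it took 0.334%, 0.296%, 0.274% and 0.256%. Every iPS library was above every fast and bulk MEF library, but slow MEF replicates 2 and 3 lay above iPS replicate 1.

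The members that departed upward in the induced fibroblasts did not share a long run of C and T near the start. The longest run of C and T in the 30 bases around the start was 10 in Rps15a, 9 in Rps24, 9 in Rps26, 8 in Rpl39, 7 in Rps25, 3 in Rpl11 and 3 in Rpl23, against a member median of 6.5. Base composition and length were set beside the differences of all members. Over the members tested, the log2 fold change and the GC percent of the coding sequence had a Spearman rho of -0.36 in slow MEF over bulk MEF (n = 76), -0.40 in fast MEF over bulk MEF (n = 74) and 0.27 in iPS over fast MEF (n = 75). The rho with coding length was -0.25, -0.19 and 0.12 in the same comparisons, which share libraries. These points share libraries, depth and amplification, and the values are descriptions. Over all genes the rho with GC percent was -0.17, -0.14 and 0.06.

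**Figure D4:**
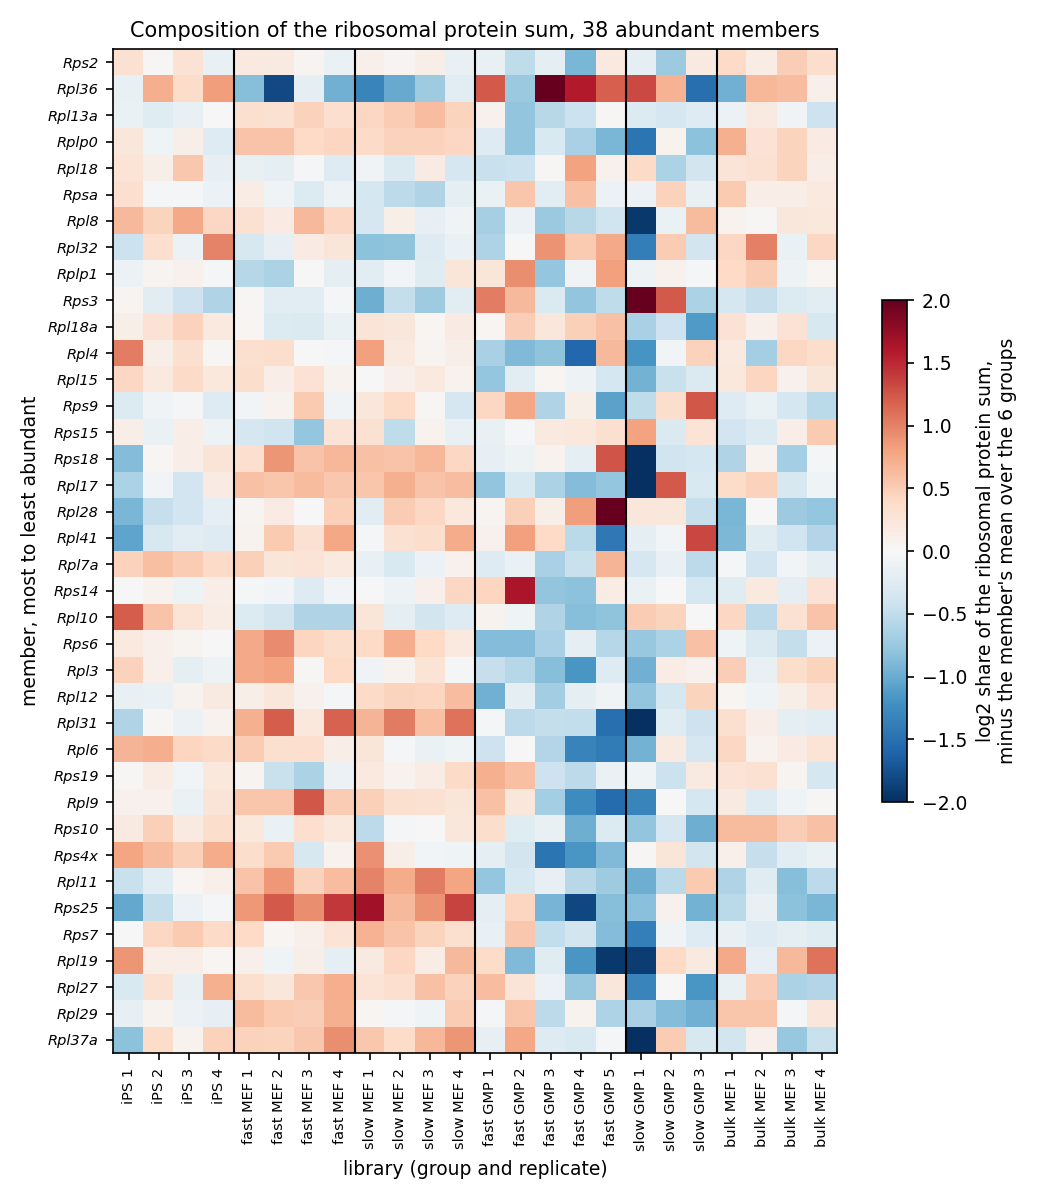
Heat map of 38 abundant members (rows) in the 24 libraries by group (columns), with color for the log2 of each member's share of the ribosomal protein sum minus its mean over the groups. Rps25 and Rpl11 stand out as higher in the 8 fast and slow MEF columns, with Rpl11 also high in slow GMP replicate 3. Rpl36 stands out as higher in 4 of the 5 fast GMP columns and lower in most columns of both induced MEF groups.

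Few ribosomal protein genes passed the test between the fast and slow gates of the induced fibroblasts. Of 76 members tested, 1 rose and 4 fell in fast MEF over slow MEF, where 14.4% of all genes tested rose and 17.3% fell. The median log2 fold change was -0.06 over the members and -0.11 over all genes. Under the alternative settings that kept all libraries of the comparison, the member median lay between -0.08 and 0.04. It was -0.16 without fast MEF replicate 4 and 0.07 without fast MEF replicate 3, so its sign is not fixed. The number of members called was 2 without fast MEF replicate 1 or slow MEF replicate 2, and 3 without fast MEF replicates 2 or 3 or slow MEF replicates 1 or 3, and with all 24 libraries in 1 edgeR fit it was 0.

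Rpl38, a large subunit protein needed for the translation of some Hox mRNAs in mice, had 23.1, 40.1, 29.8 and 55.1 CPM in fast MEF, against 120, 69.2, 88.7 and 65.1 CPM in slow MEF. Every fast MEF library was below every slow MEF library, and the log2 fold change was -1.31 ± 0.36 (SE, adjusted p = 0.0184). Rpl23, another binder of Mdm2, had 179, 199, 93.9 and 264 CPM in fast MEF, against 436, 370, 291 and 358 CPM in slow MEF, without overlap, and fell by 1.09 ± 0.29 log2 (SE, adjusted p = 0.0150). Rpl39 had 113, 221, 113 and 231 CPM in fast MEF, against 339, 333, 260 and 304 CPM in slow MEF, also without overlap, and fell by 0.97 ± 0.28 log2 (SE, adjusted p = 0.0225). Rps24 fell by 0.71 ± 0.22 log2 (SE, adjusted p = 0.0321) with overlapping groups. Rpl34 rose by 1.55 ± 0.50 log2 (SE, adjusted p = 0.0359), at 10.7, 10.8, 9.81 and 11.3 CPM in fast MEF, against 2.81, 2.82, 3.72 and 4.26 CPM in slow MEF.

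Leaving out fast MEF replicate 1 ended the calls of Rpl38 at -1.13, Rpl39 at -0.81, Rps24 at -0.62 and Rpl34 at 1.56 (log2). Leaving out fast MEF replicate 3 ended those of Rpl38 at -1.13, Rpl39 at -0.73 and Rps24 at -0.50, and slow MEF replicate 2 those of Rpl39 at -0.93, Rps24 at -0.72 and Rpl34 at 1.47. The calls of Rps24 and Rpl34 also ended without fast MEF replicate 2, slow MEF replicate 1 or slow MEF replicate 3, and that of Rpl34 without fast MEF replicate 4. Rpl23 kept its call without any of the 8 libraries. Relative to the ribosomal protein sum, Rpl34 departed upward at 1.63 ± 0.54 and Rpl23 and Rpl38 departed downward at -1.03 ± 0.30 and -1.29 ± 0.39 (log2, SE), where 14.1% of all genes lay higher and 15.2% lower. No member departed without fast MEF replicate 1 or slow MEF replicate 1, and 1 departed without fast MEF replicate 3 or slow MEF replicate 3.

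In the granulocyte monocyte progenitors no member passed the test between the gates. In fast GMP over slow GMP, 0 of 74 members passed edgeR's quasi-likelihood test, where 0% of 9732 genes passed, and DESeq2 also called 0 members, beside 74 genes higher and 24 lower. With all 24 libraries in 1 edgeR fit 1 member was called lower, beside 172 genes higher and 214 lower. At an unadjusted p under 0.05, 2 members were higher and 2 lower, beside 358 and 360 of all genes. The members' median log2 fold change was 0.45, and that of all genes 0.12. The difference between the fast over slow change in fibroblasts and that in progenitors was tested as an interaction, in which 0 of 74 members were called higher or lower, where 0.589% of all genes were higher and 0.79% lower. At an unadjusted p under 0.05 the interaction had 1 member higher and 3 lower, and DESeq2 called 1 lower. Without fast GMP replicate 1 the interaction called 2 members, and without slow GMP replicate 3 it called 1.

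The progenitors of both gates together, set against bulk MEF, had a member median of 0.70 log2, beside 0.19 over all genes. Only Rps28 and Rps3 passed the test, 2 of 74 members, where 11.4% of all genes rose and 9.53% fell. Rps28, a small subunit protein close to the mRNA exit, had 643, 753, 510, 385 and 128 CPM in fast GMP and 242, 351 and 314 CPM in slow GMP, against 112, 137, 54.0 and 105 CPM in bulk MEF. Its log2 fold change was 2.02 ± 0.58 (SE, adjusted p = 0.0241), and only fast GMP replicate 5 lay within the bulk MEF range. The call was lost without bulk MEF replicates 1, 3 or 4. Rps3 had 2082, 3272, 3200, 2469 and 2733 CPM in fast GMP and 33612, 3702 and 788 CPM in slow GMP, against 964, 1407, 941 and 1399 CPM in bulk MEF. Its log2 fold change was 2.43 ± 0.73 (SE, adjusted p = 0.0304), and it was no longer called without slow GMP replicate 1, at 1.12, or without any 1 of the bulk MEF replicates, at 2.34 to 2.60. The number of members called was 7 without fast GMP replicate 1, 4 without fast GMP replicate 5, 1 without bulk MEF replicate 2 or slow GMP replicate 1, and 0 without bulk MEF replicates 1, 3 or 4. The members departing from the sum numbered 0, and 1 without fast GMP replicate 1, slow GMP replicate 2 or slow GMP replicate 3, where 5.49% of all genes lay higher and 10.3% lower.

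Of the near copies of ribosomal protein genes outside the name rule, Rps4y2 had a larger fold change in iPS than any member. Rps4y2, which RefSeq lists as Rps4l, a transcribed pseudogene on chromosome 6, had 855, 1038, 933 and 959 CPM in iPS. It had 117, 45.4, 134 and 61.4 CPM in fast MEF, 48.2, 111, 70.3 and 50.2 CPM in slow MEF and 44.8, 268, 65.8 and 56.7 CPM in bulk MEF, and no MEF library reached the lowest iPS library. Its log2 fold change was 3.16 ± 0.55 in iPS over bulk MEF (SE, adjusted p = 0.0011) and 3.39 ± 0.35 in iPS over fast MEF (SE, adjusted p = 0.0001). Because Rps4x also rose in iPS, and a copy can take reads of its parent, the levels of this pair are uncertain. Rpl7l1, an Rpl7-like gene, had 227, 373, 327 and 266 CPM in iPS, against 149, 105, 61.5 and 101 CPM in bulk MEF, without overlap, and rose by 1.55 ± 0.31 log2 (SE, adjusted p = 0.0024). Rpl10l, an intronless copy of Rpl10 known from the testis, had 1.57, 13.2, 10.1 and 4.57 CPM in iPS and no count in bulk MEF. Rpl39l, an Rpl39-like gene, had 4 counts over fast GMP and 0 over slow GMP, against 182 counts over bulk MEF, and fell in GMP over bulk MEF (adjusted p = 0.0195). Rpl36al, Rps27l and Rpl22l1 passed no test in these comparisons.

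**Figure D5:**
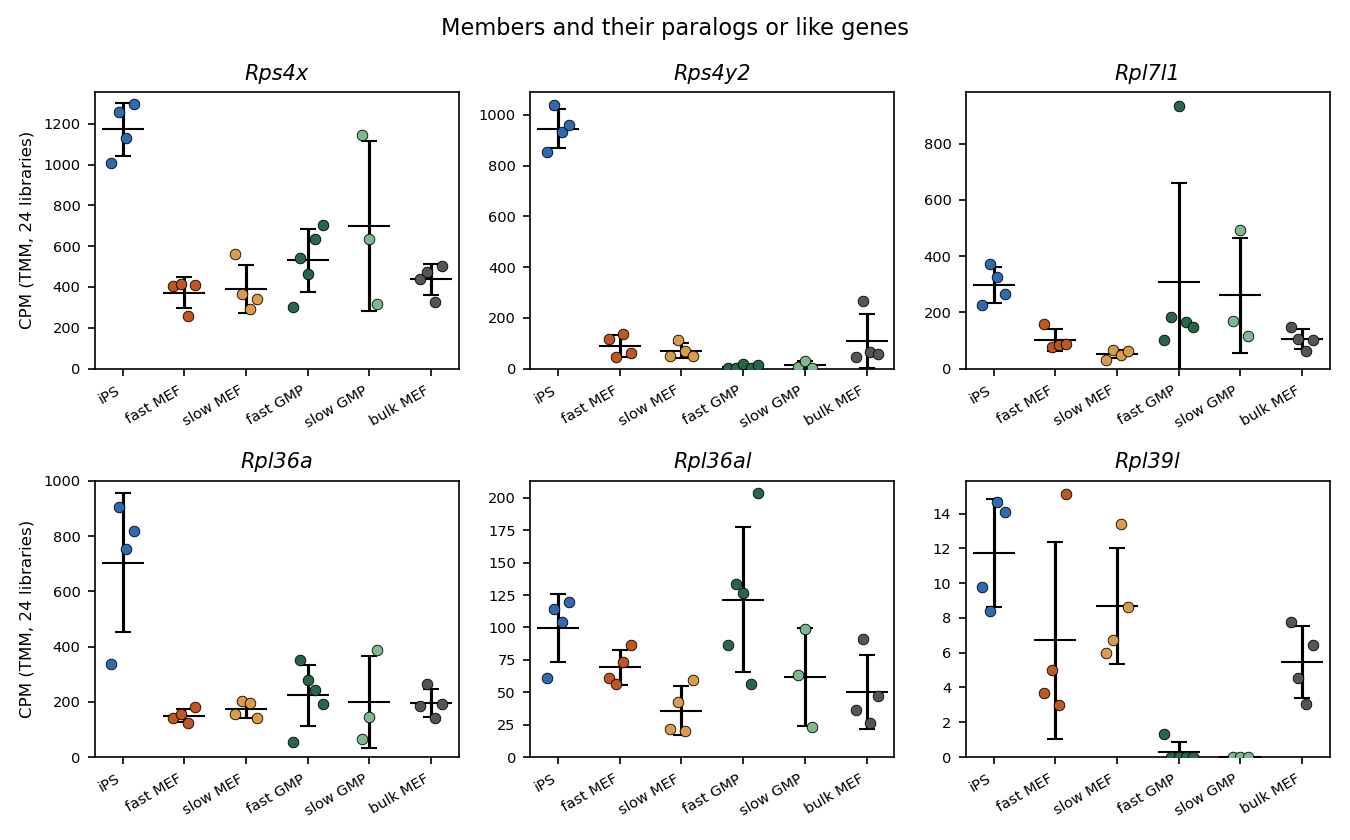
CPM of Rps4x, Rps4y2, Rpl7l1, Rpl36a, Rpl36al and Rpl39l in each library, with group means and SD, drawn down to 0 at most. Rps4y2 lies between 855 and 1038 CPM in iPS and at most at 268 CPM in the MEF groups, and Rps4x is higher in iPS than in every MEF library.

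Some ribosomal proteins lie outside the name rule because they carry other symbols. Fau, which encodes Rps30 fused to a ubiquitin-like protein, had 2870 ± 1027 CPM in iPS and 1168 ± 381 CPM in fast MEF (SD, n = 4 each) and rose by 1.29 ± 0.32 log2 in iPS over fast MEF (SE, adjusted p = 0.0104), though its groups overlapped. Gnb2l1, the signalling scaffold Rack1 on the small subunit, rose by 0.65 ± 0.14 log2 in iPS over fast MEF (SE, adjusted p = 0.00396). Fau and Gnb2l1 thus moved in the same direction as the members that were called in that comparison.

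Genes that build ribosomes were set beside the members. Of 24 chaperones, export and assembly factors tested, 10 rose and 0 fell in fast MEF over slow MEF, where 14.4% of all genes rose and 17.3% fell, with a median log2 fold change of 1.05. Grwd1, the chaperone of Rpl3, had 70.8, 79.3, 49.3 and 69.5 CPM in fast MEF, against 11.2, 15.5, 7.28 and 6.22 CPM in slow MEF, and rose by 2.64 ± 0.39 log2 (SE, adjusted p = 0.000803). Mdn1, the ATPase that strips assembly factors from the large subunit, rose by 2.12 ± 0.45 log2 (SE, adjusted p = 0.00550). The factor Eif6, which keeps the subunits apart, rose by 1.84 ± 0.32 log2 (SE, adjusted p = 0.00196). In iPS over bulk MEF, 14 of the 24 rose and 0 fell, where 24.1% of all genes rose, with a median of 1.22. In slow MEF over bulk MEF edgeR called 0, where 5.67% of all genes rose and 4.82% fell, with a median of -0.40.

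The translation factors whose mRNAs also carry the TOP motif, and other TOP mRNAs, numbered 19. In fast MEF over slow MEF 5 rose and 2 fell, where 14.4% of all genes rose and 17.3% fell. Npm1, a nucleolar chaperone of ribosome assembly, had 2531, 3682, 2778 and 3252 CPM in fast MEF, against 1234, 1005, 1102 and 722 CPM in slow MEF, and rose by 1.50 ± 0.20 log2 (SE, adjusted p = 0.000499). Vim, an intermediate filament of fibroblasts that is on this list, fell by 2.97 ± 0.22 log2 (SE, adjusted p = 2.01e-05), and Tpt1 fell by 1.04 ± 0.16 log2 (SE, adjusted p = 0.00086). In iPS over bulk MEF 9 of the 19 rose and 2 fell, where 24.1% of all genes rose and 23.3% fell. Among 28 other initiation factors tested, 9 rose and 1 fell in fast MEF over slow MEF, 12 rose and 0 fell in iPS over bulk MEF, and 0 rose and 5 fell in slow MEF over bulk MEF, where 5.67% of all genes rose and 4.82% fell. Eif5a, an initiation factor by name, was among these 5 and fell by 1.49 ± 0.21 log2 (SE, adjusted p = 0.00157).

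Of 22 genes of growth signalling and translation control, 6 rose and 1 fell among the 21 tested in fast MEF over slow MEF. Deptor, an inhibitor bound to mTOR, rose by 3.10 ± 0.62 log2 (SE, adjusted p = 0.00391), and Rps6kb1, the S6 kinase, fell by 1.14 ± 0.32 log2 (SE, adjusted p = 0.0198). Counts of Myc also rose, but reads of the induced Myc transgene and of endogenous Myc cannot be told apart. Of 76 mitochondrial ribosomal protein genes, 6 rose and 0 fell in fast MEF over slow MEF, 21 rose and 1 fell in iPS over bulk MEF, and 0 rose and 5 fell in slow MEF over bulk MEF. Of all genes 14.4%, 24.1% and 5.67% rose and 17.3%, 23.3% and 4.82% fell in these comparisons, so the mitochondrial genes that rose were fewer than that share in fast MEF and near it in iPS. In iPS over fast MEF 23 of the 76 rose and 1 fell, where 18.7% of all genes rose and 19.7% fell, with a median log2 fold change of 0.70, below the 1.02 of the cytosolic members. In fast GMP over slow GMP, 0 genes of these lists were called.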

How the data were processed

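Counts per gene in 24 libraries were deposited by the authors as 1 table of 23283 genes, 1708 of them at 0 in all libraries. Per the submitters' processing notes the authors used CASAVA 1.8.2, TopHat2 2.0.4, HTSeq and the build mm9. The sources used here do not give the annotation, the strand setting or the treatment of reads with several matches. Per the labels' protocols, cytoplasmic RNA of 1000 sorted cells was reverse transcribed with oligo-dT and amplified, so counts are not independent molecules. Rn45s and Lars2 were removed.

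Each comparison used edgeR 4.0.16 in R 4.3.3 (quasi-likelihood test, robust, TMM factors, filterByExpr, Benjamini-Hochberg over all genes, threshold 0.05) on the libraries compared only, and GMP over bulk MEF gave both gates equal weight. The SE is the log2 fold change over the root of F. DESeq2 1.42.0 and limma 3.58.1 were alternatives, and the procedure was tested on simulated data. The members and gene lists were chosen with earlier results of these data known. Genes were named by a rule: per comparison the 6 highest and 6 lowest calls, the departing members, the 10 most abundant members, the stalk, and the near copies; some of these are not reported here. Rpl26 was too low to be tested in any comparison, and Rps27 and Rpl30 in some. Whether replicates are separate animals or cultures is not in the labels, and p-values therefore cover only the spread between these samples, which may be technical. Of 37 pairs of replicates 0 had identical values, and chi-square over its degrees of freedom was at least 48.7.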

Additional observations from a re-analysis of the deposited data

Results flagged for a closer look

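Within groups of 4 or 5 libraries, 3 of 105 sets of values had 1 library far from the others by Dixon's criterion, which chance meets in about 1 of 20 sets. In fast MEF replicate 4 the ribosomal protein genes took 6.14% of the counts, against 4.92% to 5.04% in the other fast MEF libraries. In the same library Rps26 had 249 CPM, against 107 to 112 CPM in the other fast MEF libraries. In bulk MEF replicate 2, Rpl13a had 5396 CPM, against 2644 to 3025 CPM in the other bulk MEF libraries.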

How the results depend on the processing

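No named gene result changed direction under an alternative, and 244 counts or shares stayed near their reported value while 62 moved; of the named gene results, 742 stayed and 164 lost their call. With all 24 libraries in 1 edgeR fit, the members called numbered 0 in fast MEF over slow MEF, 4 in iPS over bulk MEF, 0 in slow MEF over bulk MEF, 2 in fast MEF over bulk MEF, 19 in iPS over fast MEF, 1 in fast GMP over slow GMP and 10 in GMP over bulk MEF. Without a filter on low counts they numbered 3, 15 and 1 in fast MEF over slow MEF, iPS over bulk MEF and GMP over bulk MEF. In limma voom iPS over bulk MEF had 47 and GMP over bulk MEF 10. In DESeq2 GMP over bulk MEF had 13 and the interaction 1. GMP over bulk MEF also had 5 with DESeq2 size factors, 4 with the GC correction chosen after the data were seen, 5 with a filter of 1 CPM, 8 with thinned counts and 8 with upper-quartile factors. The median of ratios left 3 departing members in fast MEF over bulk MEF. Leaving out each library gave 2 to 5 members called in fast MEF over slow MEF, 12 to 39 in iPS over bulk MEF, 6 to 17 in slow MEF over bulk MEF, 12 to 21 in fast MEF over bulk MEF, 43 to 63 in iPS over fast MEF, 0 to 7 in GMP over bulk MEF and 0 to 2 in the interaction. It gave 0 to 3 departing members in fast MEF over slow MEF, 3 to 9 in fast MEF over bulk MEF, 4 to 7 in iPS over fast MEF, 5 to 8 in slow MEF over bulk MEF, 0 to 1 in GMP over bulk MEF and 1 in iPS over bulk MEF. The summed share without the 50 largest other genes was 5.99% in fast MEF, 5.56% in slow MEF and 7.27% in bulk MEF, and with Rn45s and Lars2 kept it was 6.25% in slow GMP. With the replicate number as a block, fast MEF over slow MEF had 2 members called and 1 departing, and GMP over bulk MEF had 1 called, but same-numbered libraries did not deviate together (r from -0.09 to 0.08 over groups), so the numbers were not taken as pairs. The cause of these shifts was not tested.

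Calls rest on 3 to 5 libraries a group. The GMP libraries are the shallowest, at 2098846 to 4411526 counts, and the median within-group spread of the members is widest there; the part of depth or spread in the low number of GMP calls was not tested. Copies of members elsewhere in the genome make single levels uncertain, and amplified reads without molecular identifiers do not count molecules.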
